A study of Rattus norvegicus with 102 samples.

Results

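The genes described here build and supply cilia. They were all genes whose symbol was Dnah, Dnai, Tekt, Rsph, Ift or Bbs followed directly by a digit, which gave 46 of the 26284 genes listed in the Illumina table. The 46 identifiers carried 44 symbols, because Dnah5 and Rsph4a each had 2 identifiers. They were divided into an axoneme group of 24 (10 Dnah, 2 Dnai, 5 Tekt and 7 Rsph) and a ciliary transport group of 22 (14 Ift and 8 Bbs). Foxj1, which was also to be included, was not analysed here. RNA had been sequenced from CA1, CA3 and the dentate gyrus (DG) of 34 male Fischer 344 rats, with 1 library per subfield and rat in each table. The groups were young rats of 5 to 6 months (title suffix Y, n = 10), aged unimpaired rats (OG, n = 12) and aged impaired rats (OB, n = 12), both of 17 to 22 months. All animals had been trained in a water maze, which served to class the aged rats, and the tissue was taken 2 weeks later. It came from one hippocampus of each animal and was cut out by hand. Area CA2 and the subiculum had not been isolated. Values are normalized reads, that is, read counts divided by a size factor of the library.

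A motile cilium is a hair-like extension built around an axoneme, a ring of paired microtubules with a central pair. Dynein arms on the doublets pull them past each other, the radial spokes transmit signals from the center to the arms, and tektins run along the doublet microtubules. In the brain such cilia stand in tufts on ependymal cells, which line the ventricles and move cerebrospinal fluid. Neurons and astrocytes carry instead a single primary cilium that lacks dynein arms and radial spokes. Both kinds are assembled by intraflagellar transport, in which trains of Ift proteins carry cargo along the axoneme, and the BBSome, a complex of Bbs proteins, moves membrane proteins into and out of the cilium. Genes of the axoneme group are therefore known as genes of motile cilia, and transport genes as genes of ciliated cells in general.

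Promoter windows from RefSeq (build GRCr8) were found under the symbol for 36 of the 44 symbols. A window had 300 bases, from 250 before to 50 after the start of transcription. The half-site of the X-box, the element bound by RFX factors, which regulate many ciliary genes, was searched as GTTGCCA on both strands. Only these exact letters were counted, so a window without a match may still hold an X-box with other letters. Of all 33469 promoter windows, 4.56% held it. It was found for 3 of 18 axoneme symbols (16.7%), which were Dnah2, Dnah11 and Tekt1. Dnah11 had 6 windows, of which 1 matched, and by window the axoneme share was 3 of 23 (13.0%). It was also found for 4 of 18 transport symbols (22.2%), which were Bbs1, Ift27, Ift81 and Ift88. The forkhead motif GTAAACA, also searched on both strands and sharing no match with the X-box half-site, was found in 3.78% of all windows, for 1 of 18 axoneme symbols (5.56%, Tekt3) and for 0 of 18 transport symbols. A match describes the letters and is not evidence of binding. The 100 bases before the start of 2 axoneme genes and 1 transport gene are shown, because Dnah2 and Tekt1 were called higher in CA3 than in DG and Ift88, with the same letters, was not called, as given below. Capitals mark the half-site, which in Ift88 lies on the other strand.
Dnah2, chr10:54766027-54766126, minus strand: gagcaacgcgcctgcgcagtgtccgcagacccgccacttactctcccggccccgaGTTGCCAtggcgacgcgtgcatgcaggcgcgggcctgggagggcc
Tekt1, chr10:57479122-57479221, minus strand: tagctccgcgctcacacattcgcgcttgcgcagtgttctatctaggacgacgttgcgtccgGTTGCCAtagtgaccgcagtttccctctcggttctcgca
Ift88, chr15:35688887-35688986, plus strand: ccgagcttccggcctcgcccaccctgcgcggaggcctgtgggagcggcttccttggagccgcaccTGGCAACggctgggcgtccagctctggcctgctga

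Depth, in megareads (M), was 3.25 M to 42.8 M (median 10.7 M) in the Illumina table and 4.47 M to 21.4 M (median 9.74 M) in the Ion Proton table, which was made from the same RNA and retests technical error only. Each library was scored on marker lists of CA1 pyramidal, CA3 pyramidal and dentate granule cells, not on all genes. Among the Illumina libraries, 34 for each subfield, 13 were nearer by these scores to another subfield's median than to their own in both tables. They were 8 libraries labelled CA3, 4 labelled DG and 1 labelled CA1, from 10 rats. Of these rats, 9 carried a number from 9000 up and 1 a number below 9000. In rat R9781 the library labelled CA3 was nearest to DG and the library labelled DG was nearest to CA3. The labels give 2 series of rat numbers. There were 18 rats numbered below 9000 (5 young, 6 aged unimpaired and 7 aged impaired) and 16 numbered from 9000 up (5 young, 6 aged unimpaired and 5 aged impaired), and the labels do not say what a rat number stands for. The study's methods name animals of 2 colonies characterized at 2 sites, in Arizona and Florida, and the numbers of young and of aged rats per site equal those of the number series. No label ties a rat to a site, so site, colony and number series cannot be told apart here. Results are therefore given for all rats, within each number series and without the 13 libraries.

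Most of the called axoneme genes were higher in CA3 than in CA1 or DG over all rats, whereas Rsph10b was lower in CA3 than in DG and Dnah8 lower in CA3 than in CA1. A pair of subfields was said to differ in a gene ("called") if limma gave an adjusted p under 0.05, after Benjamini and Hochberg, in each of the poly-A tables and the direction was shared. Between CA3 and DG, 15 of the 21 axoneme genes that could be tested in both tables were called, 14 of them higher in CA3, and the median difference of the 21 was 0.85 on the log2 scale. Of all 13907 genes tested, 28.5% were called (14.1% higher and 14.3% lower in CA3) with a median of 0.0099. Between CA1 and CA3, 14 of 21 were called, 13 of them lower in CA1, with a median of -0.69, against 14.4% of all genes (7.26% higher and 7.09% lower in CA1). Between CA1 and DG 6 were called, with 3 in each direction, against 26.9% of all genes (13.4% higher and 13.5% lower in CA1). Dnah6 was 1 of the 3 higher in CA1, and its call was lost under alternatives given in the last section. The 3 axoneme genes that were not tested in both tables were Dnah3, whose mean was under 10 in the Illumina table, and both identifiers of Rsph4a, which had 0 reads in every Illumina library. Dnai2 and Tekt3 had means under 10 in CA1 and in DG and passed this filter only through CA3, where they were high, so the filter favored their calls. Without them 13 of 19 axoneme genes were called between CA3 and DG, 12 of 19 between CA1 and CA3 and 6 of 19 between CA1 and DG, and the first 2 medians were 0.65 and -0.45.

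Transport genes did not share this pattern. All 22 were tested, and 3 were called between CA3 and DG, 2 between CA1 and CA3 and 3 between CA1 and DG. Their median differences were 0.02, 0.01 and 0.01 on the log2 scale, close to those of all genes, and their called shares were under the shares of all genes given above. Because these are bulk samples, fewer cells of a type and less RNA per cell cannot be told apart in any of these differences.

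Most axoneme genes were higher in CA3 within the rats numbered below 9000, and few were called within those from 9000 up. Within that series 15 of 21 axoneme genes were called between CA3 and DG, 14 of them higher in CA3, with a median difference of 1.56, where 23.4% of all genes were called (12.4% higher and 11.0% lower). Without Dnai2 and Tekt3, which passed the filter on low values through CA3, 13 of 19 were called, with a median of 0.88. Between CA1 and CA3 16 were called, 15 of them lower in CA1, with a median of -1.38 and 21.8% of all genes called (9.81% higher and 12.0% lower). Without those 2 genes it was 14 of 19, with a median of -1.02. Between CA1 and DG 8 were called, 5 of them higher in CA1, where 15.7% of all genes were (7.98% higher and 7.75% lower). Within the rats numbered from 9000 up, in which 20 axoneme genes could be tested, 2 were called between CA3 and DG, 1 between CA1 and CA3 and 1 between CA1 and DG, where 22.0% (10.6% higher and 11.4% lower), 3.95% (2.32% and 1.64%) and 20.9% (10.5% and 10.4%) of all genes were called. Their medians were 0.05, 0.14 and 0.21. Without the libraries nearer to another subfield, 2 axoneme genes were called for each pair of subfields in the rats numbered from 9000 up, where 24.9% of all genes were called between CA3 and DG, 4.75% between CA1 and CA3 and 24.2% between CA1 and DG. Over all rats without those libraries 15 were called between CA3 and DG, 13 between CA1 and CA3 and 7 between CA1 and DG. Of all genes 31.2% (15.7% higher and 15.4% lower), 19.2% (9.08% and 10.1%) and 28.5% (14.0% and 14.5%) were then called.

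The difference between the number series was tested directly in 1 limma fit per table, a test chosen after the data were seen. The CA3 minus DG difference was not the same in the 2 series for 17 of 21 axoneme genes and 8 of 22 transport genes in the Illumina table (adjusted p under 0.05), where 48.4% of all genes passed. The CA1 minus CA3 difference was not the same for 16 of 21 axoneme and 5 of 22 transport genes, where 39.7% passed. For CA1 minus DG, 0 of 21 and 0 of 22 passed, with 0.839% of all genes. In the Ion Proton table, which could test 22 axoneme genes, the CA3 minus DG test was passed by 13 axoneme and 2 transport genes (17.1% of all genes), the CA1 minus CA3 test by 13 and 3 (15.0%), and the CA1 minus DG test by 2 axoneme genes, Dnah6 and Dnah7 (0.203%). Without the libraries nearer to another subfield, 14 axoneme and 7 transport genes passed for CA3 minus DG in the Illumina table (43.6% of all genes) 15 and 5 for CA1 minus CA3 (37.4%), and 2 and 0 for CA1 minus DG (0.967%). A large share of all genes thus differed between the series in their CA3 contrasts. What else differed between the series cannot be told apart from the series itself.

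Neuronal markers moved with the number series as well. The lists are those by which libraries were said to be nearer to another subfield, so this is not a separate observation. The summed level of the 8 markers in the CA3 pyramidal list, in CA3, was 17657 to 23171 normalized reads (median 19036) in rats numbered below 9000 and 3856 to 19087 (median 12730) in rats from 9000 up. The sum of the CA1 pyramidal list in CA3 had a median of 3818 in the first series and 7517 in the second, and that of the dentate granule list had medians of 375 and 737. The part of these shifts in the axoneme differences was not tested.

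**Figure D1:**
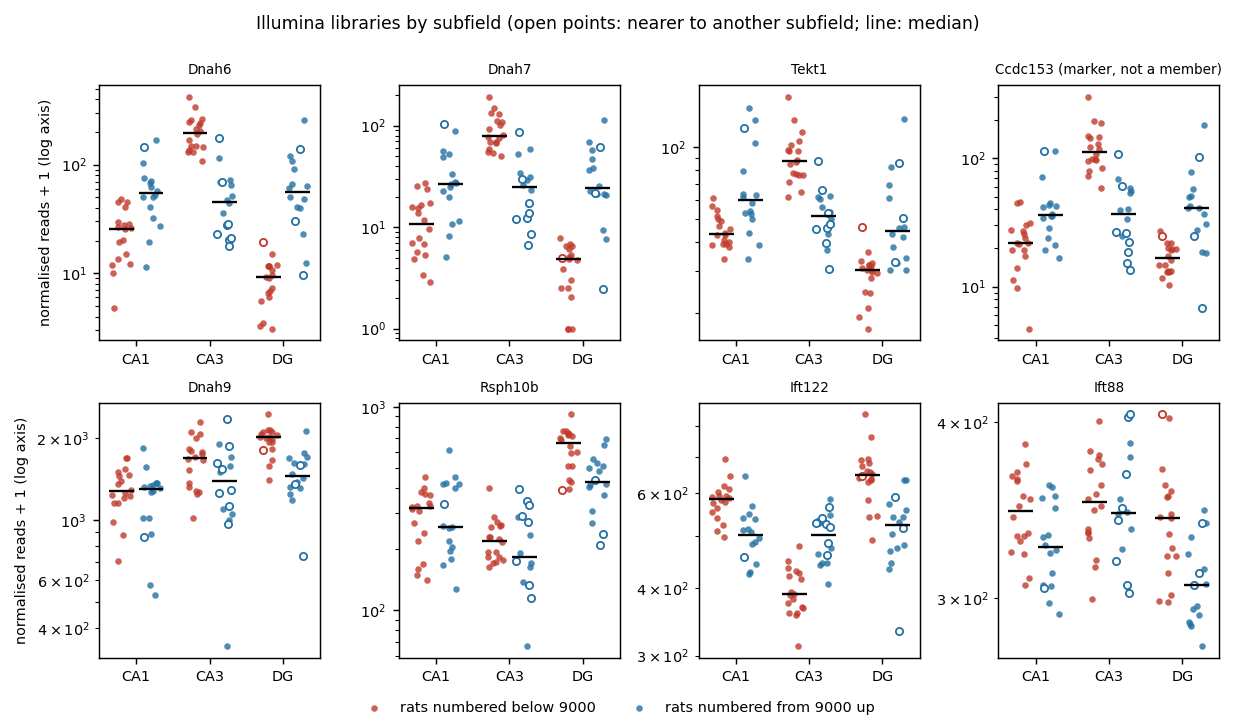
Levels of 7 genes of the 2 groups and of the ependymal marker Ccdc153 in every Illumina library, as normalized reads plus 1 on a log axis, by subfield and rat number series. Points are libraries (34 per subfield), lines are medians of a series and open points are libraries nearer to another subfield. In rats numbered below 9000, Dnah6, Dnah7, Tekt1 and Ccdc153 in CA3 lay above all CA1 and DG libraries of that series and Ift122 below them, whereas in rats from 9000 up the subfields overlapped for each of these genes, as they did for nearly all genes (at most 0.0353% per pair and direction were free of overlap).

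Dnah6, Dnah7 and Dnah1, heavy chains of the inner dynein arms, were called higher in CA3 than in DG over all rats. Dnah6 (ENSRNOG00000015581, chromosome 4), a motor of the inner arms, had 107 to 421 normalized reads (median 197) in CA3 of rats numbered below 9000. In the same rats it had 3.8 to 47.1 (median 24.7) in CA1 and 2.1 to 18.6 (median 8.2) in DG. Every CA3 library of the series was thus above every CA1 and DG library. In rats numbered from 9000 up Dnah6 had 17.0 to 176 (median 44.8) in CA3, 10.3 to 169 (median 54.3) in CA1 and 8.7 to 257 (median 54.7) in DG, and the subfields overlapped almost wholly. CA3 exceeded DG in 18 of 18 rats of the first series and in 7 of 16 of the second. The CA3 minus DG difference was 4.59 on the log2 scale (SE 0.24, limma adjusted p = 4.31e-24) in the first and -0.24 in the second, and the series differed by 4.83 (SE 0.43, adjusted p = 2.5e-16). Over all rats it was 2.32 (SE 0.33, adjusted p = 4.57e-09) in the Illumina and 2.80 in the Ion Proton table.

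Dnah7 (ENSRNOG00000012223, chromosome 9) and Dnah1 (ENSRNOG00000026914, chromosome 16), also heavy chains of inner arms, followed Dnah6 closely. Dnah7 had 49.5 to 192 normalized reads (median 78.1) in CA3, 1.9 to 26.5 (median 9.6) in CA1 and 0 to 6.9 (median 3.8) in DG of rats numbered below 9000. Dnah1 had 88.6 to 526 (median 166) in CA3, 6.5 to 46.2 (median 22.3) in CA1 and 1.5 to 16.9 (median 8.2) in DG. Neither gene overlapped between CA3 and another subfield in this series. In rats numbered from 9000 up the medians of Dnah7 were 23.7 in CA3, 25.8 in CA1 and 23.1 in DG, and those of Dnah1 were 41.4, 58.0 and 50.2. The CA3 level was thus lower and the DG level higher in the second series. Over all rats the CA3 minus DG difference was 2.36 for Dnah7 (SE 0.36, limma adjusted p = 1.79e-08) and 2.23 for Dnah1 (SE 0.33, adjusted p = 1.59e-08), and CA1 was lower than CA3 by log2 differences of -1.55 for Dnah7 and -1.46 for Dnah1. Dnah2, an inner arm gene with the X-box half-site shown above, had a smaller difference between CA3 and DG of 0.38 over all rats and 0.71 in rats numbered below 9000. Dnah3, an inner arm gene tested in the Ion Proton table only, had 7.2 to 159 normalized reads there (median 22.9) in CA3 of rats numbered below 9000, 0 to 9.6 in CA1 and 0 to 3.0 in DG.

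Outer dynein arm genes split into those that followed this pattern and those that did not. Dnah11 (chromosome 6) had a median of 152 and at most 379 normalized reads in CA3 and 4.6 to 29.3 (median 13.1) in DG of rats numbered below 9000, and its CA3 minus DG difference in this series was 3.33 on the log2 scale (SE 0.21). Both identifiers of Dnah5 (chromosome 2), the heavy chain best known from primary ciliary dyskinesia, were higher in CA3 than in DG, by 0.85 and 1.24 over all rats. They may split the reads of 1 gene. The intermediate chain Dnai1 was higher in CA3 than in DG by 0.95 over all rats and by 1.67 in rats numbered below 9000. For Dnai2, an intermediate chain whose call the filter favored, the values were 1.37 and 2.83.

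Dnah9 and Dnah8, also outer arm heavy chains, went another way. Dnah9 (chromosome 10) had 707 to 1690 normalized reads (median 1271) in CA1, 1015 to 2285 (median 1687) in CA3 and 1403 to 2444 (median 2008) in DG of rats numbered below 9000, and it was lower in CA1 than in DG by a log2 difference of -0.50 over all rats (SE 0.10, limma adjusted p = 2.05e-05). Dnah8 (chromosome 20) was higher in CA1 than in CA3 by 0.62 (SE 0.15, adjusted p = 0.000319) and higher than in DG by 0.51 (SE 0.15, adjusted p = 0.002). Its CA1 median of 103 in the first series compared with 50.6 for CA3 and 64.7 for DG, and CA1 exceeded CA3 in 18 of 18 rats. Levels are not compared between genes here, because the values are not divided by gene length.

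Of the tektins, Tekt1 and Tekt2 followed the inner arm genes. Tekt1 (ENSRNOG00000014973, chromosome 10), with the X-box half-site shown above, had 60.4 to 162 normalized reads (median 86.1) in CA3, 32.7 to 59.9 (median 42.2) in CA1 and 16.2 to 45.2 (median 29.4) in DG of rats numbered below 9000, where CA3 did not overlap with either. In rats numbered from 9000 up the medians were 50.3, 58.9 and 43.3, with overlap throughout. Tekt2 was higher in CA3 than in DG by 1.02 on the log2 scale over all rats. The difference of Tekt3, whose call the filter favored, was 1.35. Tekt4 was not called in any pair of subfields, although in the Illumina table alone its CA3 minus DG difference of 0.43 had an adjusted p of 0.000677. Tekt5 (chromosome 10), a tektin best known from sperm, was the exception, because it was higher in CA3 than in CA1 in both series. Its median in CA3 was 61.7 in the first series and 54.0 in the second, against 23.9 and 21.9 in CA1. CA3 exceeded CA1 in 18 of 18 and in 14 of 16 rats. The CA1 minus CA3 difference was -1.26 over all rats (SE 0.14, limma adjusted p = 1.66e-12), -1.38 in the first series and -1.12 in the second, and the test of a difference between the series was not passed.

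Radial spoke genes were less uniform. Rsph10b (chromosome 12), a gene of the spoke head, was lowest in CA3 and highest in DG. Among rats below 9000 it had 163 to 399 normalized reads (median 219) in CA3, 140 to 451 (median 318) in CA1 and 391 to 918 (median 664) in DG, and CA3 was under DG in 18 of 18 rats. Among those from 9000 up the medians were 182, 257 and 424, and CA3 was under DG in 14 of 16. Its CA3 minus DG difference was -1.29 over all rats (SE 0.13, limma adjusted p = 5.73e-15), and in each series it was called (-1.46 and -1.09). Rsph1, of the spoke head, was higher in CA3 than in DG by 0.59, and Rsph3, of the spoke stalk, was lower in CA1 than in CA3 by a difference of -0.30. Rsph9 was called in rats numbered from 9000 up only, where CA3 was higher than DG by 0.38, and it differed between the series by -0.75 (SE 0.19, adjusted p = 0.000671). Rsph6a was not called in any pair of subfields.

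Over single libraries of the rats numbered below 9000, 10 of 21 axoneme genes were higher in every CA3 library than in every CA1 library, where 2.11% of all genes were. Likewise 10 of 21 were higher in every CA3 than in every DG library, against 3.65% of all genes. Without Dnai2 and Tekt3, which passed the filter only through CA3, these counts were 8 of 19 each. The 2 sets shared 8 identifiers, of Dnah1, Dnah5, Dnah6, Dnah7, Dnai1, Dnai2, Tekt1 and Tekt3. No axoneme or transport gene was free of overlap between subfields in the rats numbered from 9000 up or over all rats. Almost no gene of any kind was, with 0.00% to 0.0353% of all genes per pair and direction in that series and 0.00% over all rats, so this says nothing particular to the members.

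**Figure D2:**
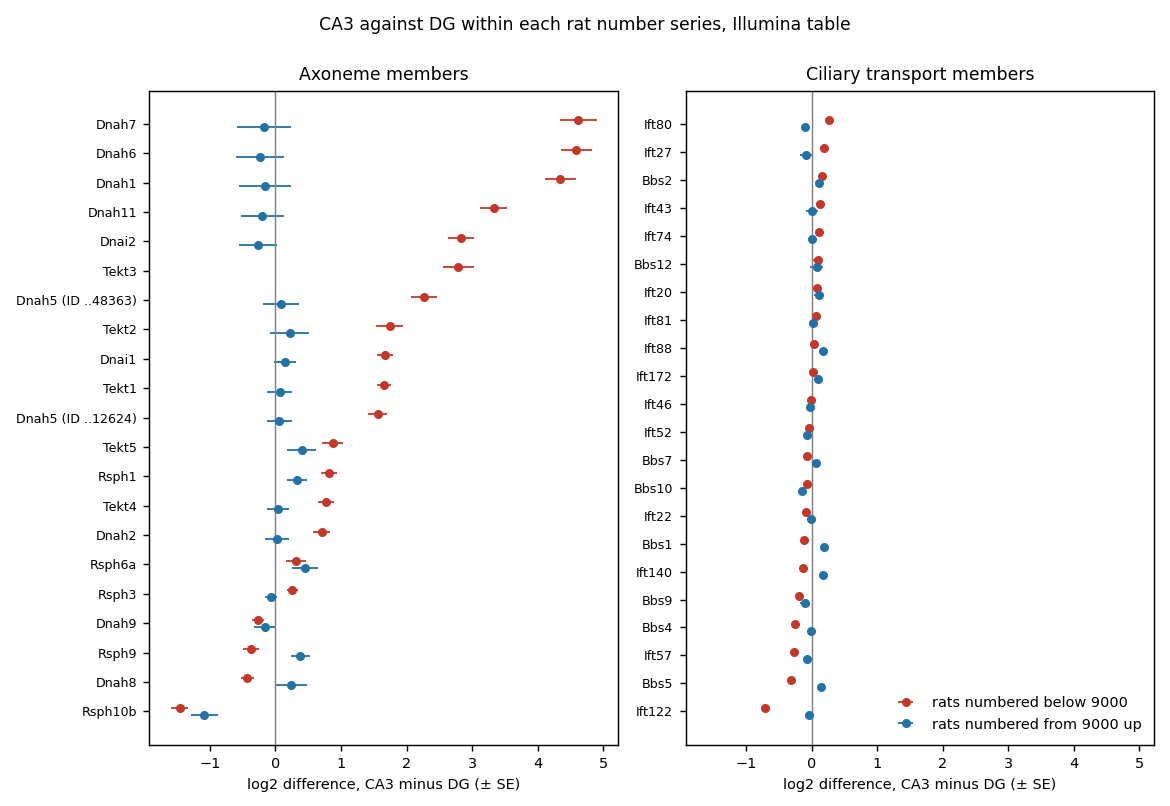
CA3 minus DG difference on the log2 scale (limma, Illumina table) within rats numbered below 9000 and from 9000 up, for 21 axoneme genes on the left and 22 transport genes on the right. Points are estimates and bars standard errors, and Tekt3 has 1 point because its mean was under 10 in the second series. Dnah7, Dnah6 and Dnah1 lie at 4.62, 4.59 and 4.35 in the first series and at -0.18, -0.24 and -0.16 in the second, while transport genes of either series lie near 0, with Ift122 lowest at -0.71 in the first.

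Among the transport genes the widest difference was that of Ift122 (ENSRNOG00000010952, chromosome 4), a subunit of the complex that carries cargo back to the base of the cilium. It ran opposite to most of the called axoneme genes. Among rats below 9000 it had 312 to 478 normalized reads (median 388) in CA3, 496 to 694 (median 584) in CA1 and 490 to 839 (median 646) in DG, and CA3 was under CA1 and under DG in 18 of 18 rats with no overlap (1.78% and 3.30% of all genes in that direction). From 9000 up its medians were 502 in CA3, 501 in CA1 and 522 in DG. The CA3 minus DG difference was -0.40 over all rats (SE 0.05, limma adjusted p = 7.47e-10) and differed between the series by -0.67 (SE 0.08, adjusted p = 3.56e-11).

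Other called transport genes moved by small amounts. Ift57, a subunit of the complex that carries cargo to the tip, was lower in CA3 than in DG by -0.18 and higher in CA1 than in CA3 by 0.15. Ift20, which also serves at the Golgi, was higher in CA1 than in DG by 0.18. Of the BBSome subunits, Bbs4 was lower in CA1 than in DG by -0.20, and Bbs2 was higher than in DG in CA1 (0.15) and in CA3 (0.13). The largest SE of these 4 genes was 0.04. Ift88, a core subunit without which cilia fail to form and whose promoter with an X-box half-site is shown above, was not called in any pair of subfields, and its medians lay between 306 and 350 in each subfield and series.

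Genes outside the 2 groups were read from lists chosen by function. Of 15 ependymal markers 10 were tested, of which 8 were higher in CA3 than in DG and 8 lower in CA1 than in CA3, with medians of 1.26 and -1.25. In these pairs 28.5% and 14.4% of all genes were called. Ccdc153, an ependymal marker, had 57.3 to 300.0 normalized reads (median 112) in CA3, 3.7 to 44.4 (median 20.9) in CA1 and 9.4 to 26.0 (median 15.7) in DG of rats numbered below 9000. Tmem212, another, had 48.7 to 234 (median 98.9), 0 to 22.9 (median 9.1) and 0 to 4.6 (median 0). Neither overlapped between CA3 and the other subfields in this series. Rarres2, the third marker fixed as defining, was higher in CA1 than in CA3 by 0.49 and than in DG by 0.53, and did not follow the others. In rats numbered from 9000 up 0 of 10 ependymal markers were called between CA1 and CA3 or between CA3 and DG, where 3.95% and 22.0% of all genes were. The summed level of this ependyma list in CA3 was 800 to 2528 normalized reads (median 1269) in the first series and 335 to 1243 (median 641) in the second, and in DG the medians were 378 and 553.

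Other axoneme genes repeated the pattern of the axoneme members, and other transport genes did not. Of 26 tested genes of the central pair, docking complexes and ciliary inner structure, 14 were lower in CA1 than in CA3 and 12 higher in CA3 than in DG, with 2 lower. Over all rats 14.4% of all genes were called between CA1 and CA3 and 28.5% between CA3 and DG, the background for this list and those that follow. Examples were Cfap44 (3.22), Spag17 (2.80), Wdr63 (2.67) and Hydin (1.03), given as the CA3 minus DG difference over all rats. In rats numbered from 9000 up 0 of 25 were called between CA1 and CA3 (3.95% of all genes) and 1 between CA3 and DG (22.0%). Of 8 tested dynein assembly factors 3 were higher in CA3 than in DG, namely Dnaaf1 (1.17), Dnaaf3 (0.90) and Zmynd10 (0.50). Of 20 other ciliary transport genes, 2 were higher and 5 lower in CA3 than in DG, with a median of -0.05. Of 10 genes of the program that makes multiciliated cells, 5 were tested, and 1 was higher and 1 lower in CA3 than in DG, and likewise 1 each in CA1 against CA3. The transcription factor Rfx3, which binds the X-box, was lower in CA3 than in DG by -1.52 and higher in CA1 than in CA3 by 0.62, and Myb, which acts early in multiciliated cells, was higher in CA3 than in DG by 1.35. The other 3 tested, Plk4, Rfx2 and E2f4, were not called.

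Choroid plexus markers, which can reach a dissected piece with the ventricle wall, were read in the same way. Over all rats, of 9 tested, 0 were called between CA1 and CA3 by limma, where 14.4% of all genes were, and 1 was higher and 1 lower in CA3 than in DG, where 28.5% were. In the rats numbered below 9000, where the axoneme genes differed, Folr1 had 23.1 to 193 normalized reads (median 51.0) in CA3, 0.9 to 78.6 (median 5.7) in CA1 and 0 to 9.2 (median 1.5) in DG. CA3 exceeded DG in 18 of 18 of these rats with no overlap and CA1 in 17 of 18. Ttr had medians of 93.4 in CA3, 50.1 in CA1 and 10.9 in DG in that series, and CA3 exceeded DG in 16 of 18 rats. Folr1 and Ttr thus moved with the axoneme genes there, and their part in the axoneme differences was not tested. Kcnj13 did not follow them, with medians of 1.8 in CA3, 1.9 in CA1 and 2.1 in DG. Of 7 tested choroid plexus genes in that series 2 were called higher and 1 lower in CA3 than in DG (median 0.78), and 2 were called lower in CA1 than in CA3 (median -0.50). Over all rats Folr1 was higher in CA3 than in DG by 1.94, whereas Ttr and Kcnj13 were not called in any pair of subfields. Ttr, an abundant choroid plexus transcript, spanned 0 to 143336 normalized reads in CA1. Its span was 9.8 to 11823 in CA3 and 1.6 to 3440 in DG. Leaving out the 14 libraries with over 1000 reads of Ttr in both tables left 14 axoneme genes called between CA3 and DG and 13 between CA1 and CA3, where 25.1% and 12.5% of all genes were called. In rats numbered below 9000 this removed only CA1 of R2231 and CA3 of R2221, R2231 and R2233. CA3 libraries with less Ttr kept Folr1, such as that of R1922 (75.5 and 76.1), so the exclusion does not test the part of choroid plexus tissue.

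With all rats pooled, most axoneme genes correlated with an ependymal marker from rat to rat. The permutation test did not keep the number series apart. Within rats numbered below 9000 the median r was low in CA1 and DG, as given below. Relations among the genes themselves were not tested. Ccdc153, an ependymal marker outside both groups, was used as the measure, chosen after the values were seen because Foxj1 was not analysed here. Pearson's r over 34 rats was computed on log2 values for 43 genes in 3 subfields, 129 relations in all. By a permutation test with 100000 resamples and Benjamini-Hochberg adjustment 62 passed, and 66 by Spearman's rho. They included 13 of 21 axoneme genes in CA1, 16 in CA3 and 15 in DG, of which 13, 16 and 14 were positive. Among all 14178 other genes past the filter, 18.7% in CA1, 42.0% in CA3 and 27.6% in DG had an r at least as far from 0 as the weakest of the members that passed (0.40, 0.39 and 0.43), with a median r of 0.00, 0.01 and 0.00. The axoneme counts were above these shares, while the share of transport genes that passed, given below, was near them. Median r of the axoneme genes was 0.52, 0.78 and 0.61, and 0.43, 0.59 and 0.59 in the Ion Proton table. In CA1 the median was 0.24 within rats numbered below 9000 and 0.56 within those from 9000 up, and in CA3 it was 0.82 and 0.48. Without the 2 rats farthest from the median of Ccdc153 it was 0.44 in CA1, 0.79 in CA3 and 0.40 in DG. The axoneme genes also had positive median r with the choroid plexus marker Ttr in CA1 and DG, where it was 0.42 and 0.34 (-0.02 in CA3) and the r of Ccdc153 with Ttr was 0.31 and 0.51 (-0.01 in CA3). The part of Ttr-rich tissue in these relations was not tested. Of 22 transport genes 4, 7 and 7 passed, of which 0, 6 and 1 were positive, and median r was -0.14, 0.20 and -0.23. In the Ion Proton table these transport medians had the opposite signs (0.06, -0.08 and 0.17). Within rats numbered below 9000 they were -0.11, 0.35 and 0.06, and within those from 9000 up -0.04, 0.21 and -0.03, so that the pooled value in DG was not found within either series.

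Dnah6 had the highest r in each subfield. In CA3 it was 0.97 (rho 0.97; adjusted permutation p = 4.78e-05 and 6.79e-05, which rest on the smallest p that 100000 resamples can give), with 0.94 within rats numbered below 9000, 0.92 within those from 9000 up and 0.97 without the 2 rats farthest from the median of Ccdc153. In CA1 it was 0.82 (rho 0.81), with 0.64 and 0.88 within the series and 0.82 without the 2 rats. In DG it was 0.85 (rho 0.74), but 0.05 within rats numbered below 9000 and 0.95 within those from 9000 up, so that in DG the relation was found in the second series. Ccdc153 in DG spanned 9.4 to 26.0 normalized reads in the first series and 5.8 to 181 in the second. The pattern within the series was similar for the whole group, whose median r in DG was 0.18 and 0.75.

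At the other end, r was lowest for Rsph9 in CA1 (-0.38), Dnah8 in CA3 (-0.29) and Rsph10b in DG (-0.43). Of the transport genes, Ift80, a subunit of the outbound complex, had the highest r in CA1 (0.34) and CA3 (0.72). In CA3 its r was 0.68 within rats numbered below 9000, 0.16 within those from 9000 up and 0.05 in the Ion Proton table, so that it was not repeated there. Ift27 had the highest in DG (0.44). The lowest were Bbs5 in CA1 (-0.46), Ift122 in CA3 (-0.53) and Ift122 in DG (-0.61). The r of Ift122 within the series was 0.14 and 0.12 in CA3 and 0.02 and -0.50 in DG, so the pooled values in CA3 were not found within the series.

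**Figure D3:**
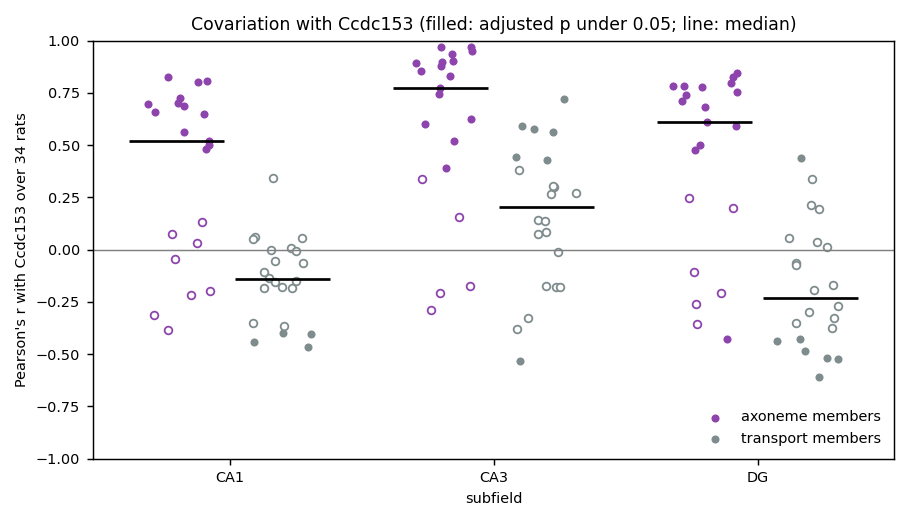
Pearson's r with the ependymal marker Ccdc153 over 34 rats in each subfield, Illumina table, log2 values. Each point is 1 of 21 axoneme or 22 transport genes, filled where the adjusted permutation p was under 0.05, and lines are medians, which are 0.52, 0.78 and 0.61 for axoneme and -0.14, 0.20 and -0.23 for transport genes, the latter with opposite signs in the Ion Proton table (0.06, -0.08 and 0.17).

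For age, 0 genes of the 2 groups were retested, a count near that of all genes. A gene was retested if limma gave an unadjusted p under 0.01 in the Illumina table and a one-sided p under 0.05, with an equal sign, in the Ion Proton table. Of 19 axoneme genes in CA1, 22 in CA3 and 19 in DG that could be tested in the Illumina table, and of 22 transport genes in each, 0 were retested for aged (n = 24) against young (n = 10) rats, where 0.832%, 0.393% and 1.07% of all genes were. By edgeR and DESeq2 the counts were also 0. The median log2 differences of the axoneme genes were -0.06, -0.18 and -0.00, and those of the transport genes 0.01, -0.04 and -0.00. In the Illumina table Ift80 in DG was the 1 member with an unadjusted p-value under 0.05, which 6.15% of all genes had in CA1, 3.31% in CA3 and 5.20% in DG. It had 341 to 501 normalized reads (median 404) in young and 301 to 410 (median 368) in aged rats, a difference of -0.11 (SE 0.05, limma adjusted p = 0.768). Among the Ion Proton libraries of DG 4 other members had such a p-value, namely Rsph10b, Bbs10, Bbs4 and Ift88, where 8.47% of all genes did. For Dnah6 in CA3, young rats had 20.2 to 421 normalized reads (median 123) and aged rats 17.0 to 259 (median 132). The age difference did not differ between any pair of subfields for any member at an adjusted p under 0.05, nor for any of the 14179 genes (0.00%).

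Cognition gave 2 retested genes, and neither passed the adjusted threshold. In CA1 1 gene was retested, where 0.620% of all genes were (4 members and 5.71% of all genes had an unadjusted Illumina p under 0.05). Dnah6 had 3.8 to 75.2 normalized reads (median 18.5) in CA1 of aged impaired rats and 14.2 to 145 (median 42.0) in aged unimpaired rats, with wide overlap. The difference was -1.09 on the log2 scale (SE 0.39, unadjusted limma p = 0.0099, adjusted p = 0.667) and -0.88 in the Ion Proton table. It was not retested by edgeR or DESeq2, without the libraries nearer to another subfield (-0.93), without the libraries rich in Ttr (-0.71) or in the WT table (-0.79). Of the defining ependymal markers in CA1, none retested, Ccdc153 had medians of 20.3 in impaired and 31.1 in unimpaired rats, Tmem212 had 5.6 and 19.3, and Rarres2 had 134 and 138. The sum of the ependyma list was 419 to 1029 (median 491) and 403 to 1288 (median 593). Of its genes 14 were listed in the Illumina table, and none of these was at 0 in all libraries. The part of these values in the difference of Dnah6 was not tested. Of the 10 tested ependymal markers 0 were retested.

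In CA3, 0 members were retested for cognition by limma, edgeR and DESeq2, and 0 had an unadjusted Illumina p-value under 0.05 (0.0211% of all genes were retested and 1.4% had such a p-value). In DG 1 gene was retested, where 0.121% of all genes were (3 members and 3.85% of all genes had an unadjusted Illumina p under 0.05). The identifier ENSRNOG00000012624 of Dnah5 had 28.4 to 80.4 normalized reads (median 38.6) in DG of impaired and 10.5 to 47.9 (median 27.2) in unimpaired rats, which overlapped. The difference was 0.65 (SE 0.19, unadjusted limma p = 0.0026, adjusted p = 0.999) and 0.54 in the Ion Proton table. The second identifier of Dnah5 differed by 0.68 (SE 0.29, unadjusted p = 0.025) and was not retested. In rats numbered below 9000, 0 genes were retested in DG, and in those from 9000 up there were 4, namely Dnah1, Dnah5, Dnah6 and Dnai1, where 0.79% of all genes were. Without the libraries nearer to another subfield the count was 0, where 0.207% of all genes were. In DG of the aged rats of that series, with those libraries kept, 3 of 10 ependymal markers and 6 of 26 other axoneme genes were retested, all higher in impaired rats (0.641% of all genes in that direction). One of the libraries nearer to another subfield is the DG library of rat R9781, an impaired rat, with 138 normalized reads of Dnah6 in the library labelled DG and 26.9 in the library labelled CA3. The other DG libraries left out in that series were those of unimpaired rats R9865 (8.7) and R9869 (29.1), both nearest to CA1. The sum of the ependyma list in DG was 340 to 1045 (median 432) in impaired and 328 to 663 (median 424) in unimpaired rats, and its part was not tested.

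**Figure D4:**
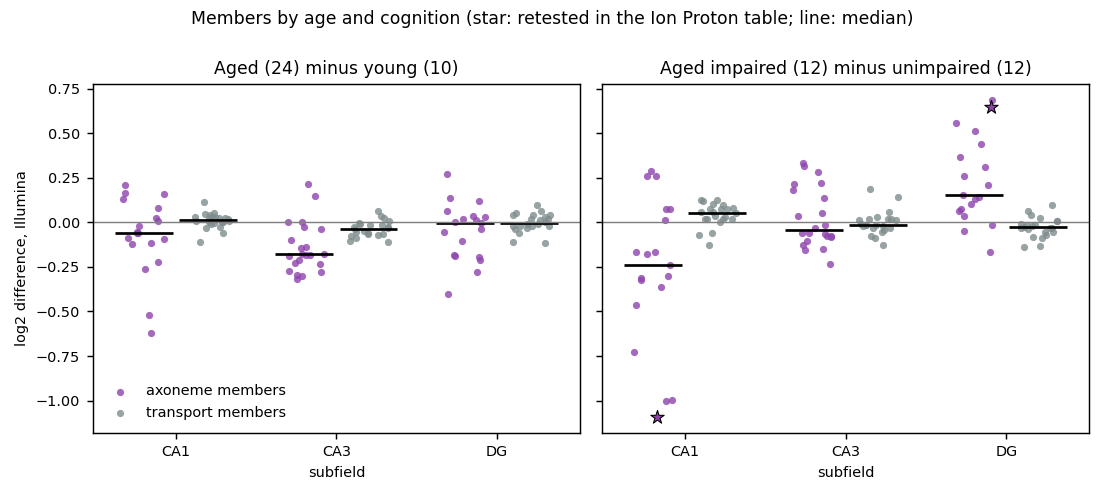
Illumina log2 difference of each axoneme and transport gene in each subfield, for aged (n = 24) minus young (n = 10) rats on the left and aged impaired (n = 12) minus aged unimpaired (n = 12) rats on the right, with medians as lines. Stars mark the 2 retested genes, Dnah6 in CA1 at -1.09 and Dnah5 in DG at 0.65.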

How the data were processed

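The deposited values were gene counts that the authors had divided by a DESeq2 size factor, so their unit was a normalized signal. Per the study's methods and the submitters' notes, Illumina poly-A reads were trimmed with CutAdapt (1.8.3), aligned to rn5 with STAR (2.5) and counted with featureCounts (1.4.4). Ion Proton reads were aligned with TopHat2 and Bowtie2. The labels and the methods named different Illumina kits, so counting by strand is unknown and antisense or overlapping genes can share reads. A table named WT, of no stated library type, served only as an alternative. Reads were recovered by dividing the values of each library by a step found from its lowest values. Values above 0 were then whole reads in 100.0% of cases (tolerance 0.01 reads), and depths are the totals of these reads.

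limma (3.58.1, under R 4.3.3) with a variance trend was fitted to log2(value + 1) for genes whose mean reached 10 over the libraries used, with Benjamini-Hochberg adjustment over all genes. This scale understates changes of low genes. Tests were tried first on simulated data. Subfields were compared over all libraries, age and cognition within a subfield. Each rat gave 1 library per subfield, so rats pair the libraries, and the pairing comes from the animal number in the labels. The correlation of same-rat deviations had medians of 0.087 (CA1 with CA3), 0.19 (CA1 with DG) and -0.032 (CA3 with DG). Ion Proton and Illumina libraries share RNA. No pair of libraries of a group agreed within sampling noise. edgeR (4.0.16) on whole reads called 15.5%, 29.4% and 31.2% of genes between CA1 and CA3, CA1 and DG, and CA3 and DG, and DESeq2 (1.42.0) was another alternative.

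The members and lists were chosen with earlier results of these data known. Genes named were the 5 members of each group with the largest change among those called per comparison, all retested members, the fixed markers and the members with extreme r, and others were named after their values were seen. Promoters came from RefSeq (GRCr8), and no window was found under the symbol for 8 symbols.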

Additional observations from a re-analysis of the deposited data

Results flagged for a closer look

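Of 63 groups of 10 young rats examined (21 named genes and markers in 3 subfields), 28 had a highest or lowest library set far from the other 9, where chance gives about 1 in 20 for values with a symmetric normal spread. All 28 were at the high end of values in normalized reads and the genes are correlated, so this chance rate does not apply to their number. Most came from 2 libraries. The DG library of young rat R9881 stood above the others for Dnah6 (257 normalized reads), Dnah7 (113), Dnah1 (243), Dnah11 (226), Tekt1 (130), Dnai2 (34.3), Dnah5 (142), Ift20 (534), Ccdc153 (181), Tmem212 (124), Ttr (3440), Folr1 (68.7) and Kcnj13 (18.4). The CA1 library of young rat R9879 stood above the others for Dnah7 (87.1), Dnah1 (207), Dnah11 (167), Tekt1 (103), Dnai2 (27.2) and Dnah5 (95.2), and it was nearest to CA3 in the Illumina table.

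Single values apart from the others were those of CA3 of young rat R2221 for Dnah1 (526), Ttr (11823) and Folr1 (193), of CA1 of young rat R9876 for Ift20 (576), of CA3 of young rat R9876 for Rarres2 (663) and Kcnj13 (274), of CA1 of young rat R2175 for Rarres2 (320) and Kcnj13 (79.7), and of CA1 of young rat R9877 for Ttr (1490).

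The number series differed, by a direct limma test at an adjusted p under 0.05 in the Illumina table, in many genes of all kinds. For CA1 minus CA3 these were 16 of 21 axoneme and 5 of 22 transport genes, with 39.7% of all genes. For CA3 minus DG they were 17 of 21 axoneme and 8 of 22 transport genes, with 48.4% of all genes. The transport shares were under those of all genes.

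Rsph4a, a spoke head gene, had 0 reads in every Illumina library, while its 2 identifiers reached 50 and 37 reads in an Ion Proton library. Over 3 reads of the first identifier were found in 13 CA1, 22 CA3 and 4 DG libraries of 34 each.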

How the results depend on the processing

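In the rats numbered from 9000 up, called axoneme genes fell to 1 between CA1 and CA3, 1 between CA1 and DG and 2 between CA3 and DG, and transport genes between CA1 and CA3 to 0. Without the libraries nearer to another subfield these counts were 2, 2, 2 and 0, and 5 transport genes were called between CA1 and DG. In that series the CA1 minus CA3 difference turned to 0.24 for Dnah6, 0.20 for Dnah7, 0.39 for Dnah1 and 0.61 for Dnah11 (0.16 without those libraries), and the CA3 minus DG difference to -0.18 for Dnah7, -0.24 for Dnah6, -0.16 for Dnah1, -0.20 for Dnah11 and -0.27 for Dnai2. The CA1 minus DG difference of Dnah6 turned to -0.24 in that series without those libraries. It was 0.17 under edgeR and 0.18 under DESeq2, and its call was lost in both. In rats numbered below 9000, with or without the libraries nearer to another subfield, 4 transport genes were called between CA1 and CA3. Transport genes called between CA1 and DG were 5 under DESeq2 and 5 without the 7 most deeply sequenced rats, where 1 member was retested for age in DG. No share of all genes is set beside these counts, so they are not read as results about the members. The retested gene for cognition in CA1 was lost (0) with no filter on low values, under edgeR and DESeq2, in rats from 9000 up with or without the libraries nearer to another subfield, without those libraries, without the libraries with over 1000 reads of Ttr, without the 7 most deeply sequenced rats and in the WT table. For cognition in DG the count was 2 with the number series as a covariate, 4 in rats from 9000 up, and 0 in rats below 9000 and in the WT table, and 0 in either series without the libraries nearer to another subfield. The cause of these changes was not tested.

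With the rat as a replicate block, 15, 5 and 15 axoneme genes and 2, 4 and 4 transport genes were called between CA1 and CA3, CA1 and DG, and CA3 and DG. The share of all genes called with this block was not computed, so these counts cannot be set against it. The block ended the call of Dnah6 between CA1 and DG and changed no other named gene. The 173 other values of counts under alternatives kept within 1.5 times the main count. Alternatives that left out libraries nearer to another subfield in 1 series, left out libraries rich in Ttr, or put Ccdc153 in place of Foxj1 were chosen after seeing the data. So was the direct test of a difference between the number series. No fixed scaling moved the median of all genes by over 0.1.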
